A study of Rattus norvegicus with 12 samples.

Results

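The thick ascending limb of the loop of Henle and the distal convoluted tubule were followed in rat kidney cortex through 6 marker genes, Slc12a1, Umod, Slc12a3, Pvalb, Calb1 and Trpv5. All array probes whose gene name or transcript accession mapped to these genes were taken, which gave 9 of the 41012 probes on the array, and 6 of 35537 genes or unmatched transcripts. Slc12a1, Umod, Slc12a3, Pvalb and Trpv5 had 1 probe each, and Calb1 had 4, which are shown separately because they did not move alike. All animals were male Fisher 344 rats, 8 weeks old, given a single intravenous dose of saline or of cephaloridine, a cephalosporin antibiotic taken up by and toxic to the proximal tubule. The kidney cortex was collected 24 h later. There were 4 groups of 3 animals, each animal on its own single-colour array. Controls received saline (0 mg/kg). The labels name the other groups low, middle and high, taken here as the stated doses of 150, 300 and 600 mg/kg in ascending order. The study set subtoxic against toxic doses.

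The thick ascending limb takes up sodium, potassium and chloride from the tubular fluid without water, and its positive lumen drives calcium and magnesium back between the cells. The distal convoluted tubule that follows takes up sodium chloride through a thiazide-sensitive carrier and magnesium through a channel. Its late part and the connecting tubule move calcium across the cell: the channel TRPV5 lets it in, the binding protein calbindin-D28k carries it, and an exchanger and a pump release it to the blood. Slc12a1 encodes the furosemide-sensitive carrier NKCC2 of the thick ascending limb, and Umod encodes uromodulin, the main protein of normal urine, made by the same cells. Slc12a3 encodes the thiazide-sensitive carrier NCC. Pvalb encodes parvalbumin, a calcium-binding protein of the early distal convoluted tubule and of fast muscle, Calb1 encodes calbindin-D28k, and Trpv5 encodes the calcium channel.

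The promoters of the paired salt carriers, Slc12a1 and Slc12a3, are shown because these related genes mark neighbouring segments and only the second passed the test below. Each sequence is the 250 bases before the annotated start in RefSeq, build GRCr8, read 5′ to 3′ along the gene's own strand. That of Slc12a1 is the first of its 2 listed start sites and lies on the plus strand at chr3:132859409-132859658. That of Slc12a3 lies on the minus strand at chr19:10675051-10675300. Capitals mark a match to TATAAA, the core of the TATA box, which was searched on both strands together with GTTAAT, the HNF1 half-site, and no matches overlapped.
Slc12a1: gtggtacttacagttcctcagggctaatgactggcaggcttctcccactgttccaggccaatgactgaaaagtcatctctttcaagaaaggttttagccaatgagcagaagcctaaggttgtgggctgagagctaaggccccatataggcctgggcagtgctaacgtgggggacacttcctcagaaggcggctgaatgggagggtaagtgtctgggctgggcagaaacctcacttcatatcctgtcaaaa
Slc12a3: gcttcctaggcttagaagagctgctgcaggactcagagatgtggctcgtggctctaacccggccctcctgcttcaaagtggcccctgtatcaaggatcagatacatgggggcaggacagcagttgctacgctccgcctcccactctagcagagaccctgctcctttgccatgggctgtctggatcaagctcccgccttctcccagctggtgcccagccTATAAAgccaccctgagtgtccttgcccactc
Slc12a3 held 1 TATAAA, whose first base lay 32 bases before the start, and Slc12a1 held neither motif in this window. Of 33469 promoters of this length, 12.9% held TATAAA and 6.45% held GTTAAT on either strand. A match describes these letters and no binding was measured. The changes of the 2 genes were not tested against each other, and a link between a motif and a change was not tested. The Umod promoter held 2 TATAAA matches, and those of Pvalb and Trpv5 held neither motif.

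Processed signals had array medians of 59 to 68.6 and 75th percentiles of 627 to 712. The share of probes well above background was 59.2% to 63.3%, and 0 spots were saturated. Signals are given as log2 of the processed signal minus the array's own 75th percentile, so 0 is that percentile; levels of different probes cannot be set against each other. Testing was limited to probes that stood well above background on every array of some group, which left 24728 probes, among them 7 of the 9 members (Slc12a1, Umod, Slc12a3 and 4 of Calb1). Tests were limma's moderated test on all 12 arrays with Benjamini-Hochberg adjustment over the 24728 probes, called at an adjusted p under 0.05; every adjusted p below is of this kind, and errors are standard errors unless SD is named. Slide 1 carried controls 1 to 3 and low 1, slide 2 low 2 and middle 1, slide 3 low 3 and middle 2, and slide 4 middle 3 and high 1 to 3. Controls shared no slide with the middle arrays or with the high arrays. For both comparisons only a fit with slide as a block separates slide from dose. It joins middle to control through the low arrays, and high to control through the low and middle arrays. Only middle 3 joins slide 4, and so the high arrays, to the other slides. In that fit the median standard error for high minus control was 0.156 in place of 0.0767, and 577 probes were called in place of 8428. For middle minus control it was 0.125 in place of 0.0767, and 55 probes were called in place of 3163.

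Slc12a3 and 2 of the 4 Calb1 probes were higher at 600 and at 300 mg/kg than in controls, while Slc12a1, Umod and the other Calb1 probes did not pass at any dose. At high against control 3 of the 7 tested member probes were called, all higher, in 2 of 4 genes; over all probes 34.1% were called and 17.3% were called higher. At middle against control the same count was 3 of 7, against 12.8% of all probes and 7.58% called higher. At low against control 0 of 7 were called (0 also at an unadjusted p under 0.05), where 0.101% of all probes were. The median change of the 7 probes was 0.18 at high, 0.24 at middle and 0.12 at low, beside -0.007, 0.016 and 0.015 over all probes. The 3 comparisons share the same control arrays. With slide as a block 1 member probe was called at high and 0 at middle, against 2.33% and 0.222% of all probes.

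**Figure D1:**
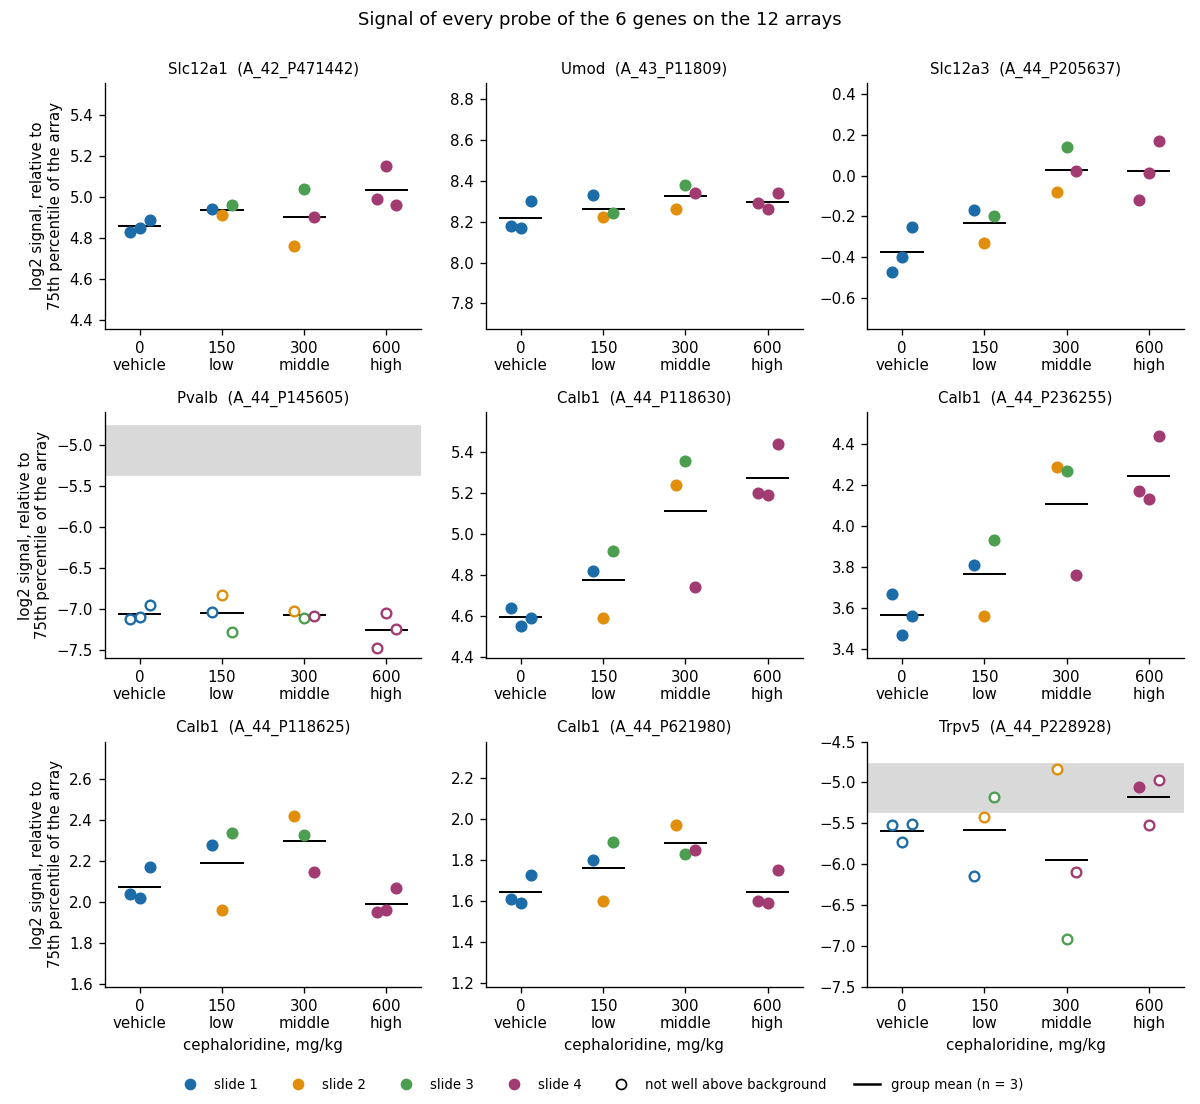
Log2 signal relative to the array's 75th percentile (vertical axis) of each member probe on the 12 arrays, by dose group (horizontal axis), with points coloured by slide; the grey band in the Pvalb and Trpv5 panels is the range over arrays of the lowest signal well above background. Slc12a3 and the first pair of Calb1 probes lay higher on all middle and high arrays than on the controls, and Pvalb lay under the band on all 12 arrays.

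Slc12a1, the furosemide-sensitive carrier, had log2 signals of 4.83, 4.85 and 4.89 on the controls, 4.94, 4.91 and 4.96 on the low arrays, 4.76, 5.04 and 4.90 on the middle arrays and 4.99, 5.15 and 4.96 on the high arrays. All 3 high arrays lay above all 3 controls, as did the low arrays, while the middle arrays spread across both. The difference was 0.18 ± 0.07 at high (n = 3 per group, adjusted p = 0.0749), 0.05 at middle (0.708) and 0.08 at low (0.736). It did not pass, and with normexp background correction it did (0.19, adjusted p = 0.0333). All high arrays lay above all controls in 27.6% of the probes tested, and all low arrays above all controls in 11.1%.

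Umod, the uromodulin gene, had 8.18, 8.17 and 8.30 on the controls, 8.33, 8.22 and 8.24 at low, 8.26, 8.38 and 8.34 at middle and 8.29, 8.26 and 8.34 at high. The groups overlapped at every dose. Differences from control were 0.08 ± 0.05 at high (95% interval -0.04 to 0.19, adjusted p = 0.27), 0.11 at middle (0.177) and 0.04 at low (0.822). In the fit with slide as a block the high difference was 0.16 ± 0.12 (adjusted p = 0.494).

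Slc12a3, the thiazide-sensitive carrier, had -0.47, -0.40 and -0.25 on the controls, -0.17, -0.33 and -0.20 at low, -0.08, 0.14 and 0.02 at middle and -0.12, 0.01 and 0.17 at high. Every middle and high array lay above every control, and low lay between, overlapping the controls. All middle arrays lay above all controls in 19.2% of probes tested, and all high arrays in 27.6%. It rose 1.31-fold at high (log2 0.39 ± 0.09, n = 3 per group, adjusted p = 0.00747) and 1.32-fold at middle (0.40 ± 0.09, adjusted p = 0.0203). The difference at low was 0.14 (adjusted p = 0.64), and high and middle differed by -0.01 (0.96). With slide as a block the high difference was 0.49 (adjusted p = 0.221) and the middle one 0.50 (0.196), so neither kept its call. The middle call was also lost without control 1 (0.35, adjusted p = 0.0813), control 2 (0.39, 0.0739) or middle 2 (0.34, 0.051). The same held with no filter on dim probes (adjusted p = 0.0557) and with only the groups compared (0.0712). Within slides, middle exceeded low by 0.25 on slide 2 and 0.34 on slide 3, with 1 array each, and high differed from middle 3 by -0.00 on slide 4. In bulk tissue, more cells of a type and more RNA per cell cannot be told apart.

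Pvalb, the parvalbumin gene, was not well above background on any of the 12 arrays. Its log2 signals were -7.12, -7.10 and -6.95 on the controls, -7.04, -6.83 and -7.28 at low, -7.03, -7.11 and -7.08 at middle and -7.48, -7.05 and -7.25 at high. All lay below the lowest signal well above background, which ran from -5.36 to -4.77 over the arrays, so only a bound is known and no difference was tested. Of the fast muscle markers listed, Myh4, Acta1, Ckm and Myl1 were not tested either, and Tnnt3, the only one tested, was not called against control at any dose (0.29 at high, adjusted p = 0.216). It was higher at high than at middle (0.66, adjusted p = 0.0216; 0.73, 0.0417 with slide as a block), a call lost without middle 2, middle 3 or high 1. With only the groups compared it was also called at high against control.

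**Figure D2:**
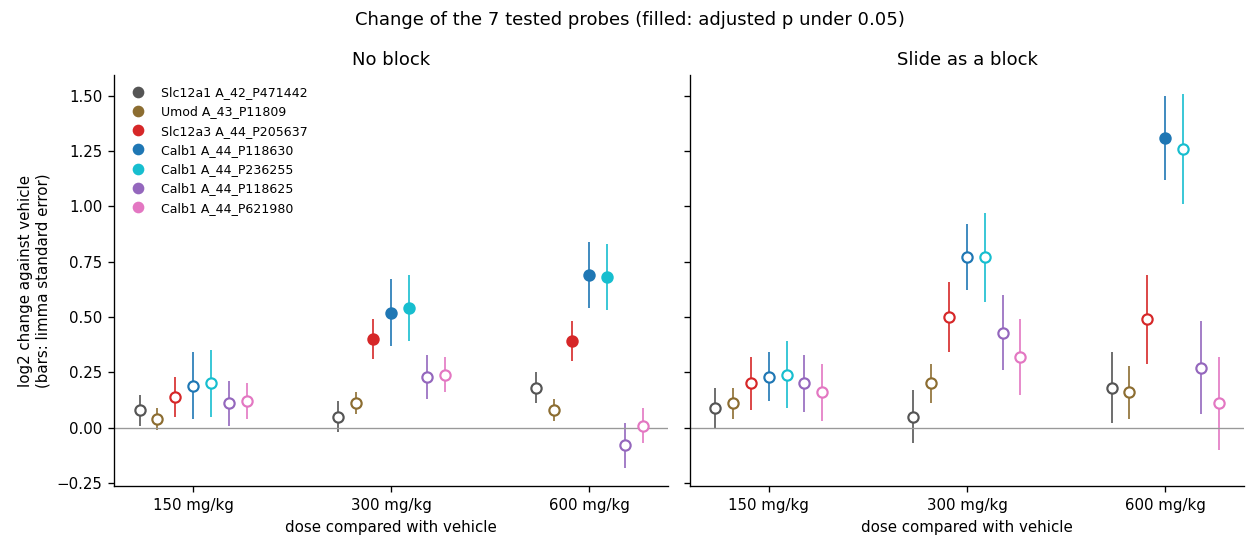
Log2 change against control (vertical axis, bars are limma standard errors) of the 7 tested member probes at 150, 300 and 600 mg/kg (horizontal axis), without a block on the left and with slide as a block on the right; filled points have an adjusted p under 0.05. Without a block the filled points are Slc12a3 and the Calb1 probes A_44_P118630 and A_44_P236255 at 300 and 600 mg/kg, and with slide as a block only A_44_P118630 at 600 mg/kg is filled.

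Calb1, the calbindin-D28k gene, gave 2 patterns. Probe A_44_P118630 had 4.64, 4.55 and 4.59 on the controls, 4.82, 4.59 and 4.92 at low, 5.24, 5.36 and 4.74 at middle and 5.20, 5.19 and 5.44 at high. Probe A_44_P236255 had 3.67, 3.47 and 3.56 on the controls, 3.81, 3.56 and 3.93 at low, 4.29, 4.27 and 3.76 at middle and 4.17, 4.13 and 4.44 at high. On both, all high and middle arrays lay above the controls, and middle 3 was the lowest of the middle arrays. Over all probes tested, such separation from the controls was seen in 27.6% at high and 19.2% at middle. At high the first rose 1.61-fold (log2 0.69 ± 0.15, n = 3 per group, adjusted p = 0.00543) and the second 1.6-fold (0.68 ± 0.15, adjusted p = 0.00621). With slide as a block these were 1.31 ± 0.19 (adjusted p = 0.0288) and 1.26 ± 0.25 (0.0547), so the first kept its call and the second did not. Both values from that fit rest on middle 3, the only array that joins the high arrays to the other slides. At middle the differences were 0.52 ± 0.15 (adjusted p = 0.0435) and 0.54 ± 0.15 (0.0403). Both middle calls were lost when any of control 1 to 3, middle 1 or middle 2 was left out (highest adjusted p 0.129 and 0.132), with the replicate number as a block (0.0775 and 0.0654) and with slide as a block (0.77 for each, adjusted p = 0.0937 and 0.144). Quantile normalization (adjusted p = 0.0663 and 0.0639) and scan day as a block (0.0642 and 0.0644) lost them as well. So did no filter on dim probes (0.102 and 0.0957) and only the groups compared (0.124 and 0.108). Without middle 3 both middle differences were 0.71 (adjusted p = 0.011 and 0.0149).

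The other 2 probes were not called at any dose. Probe A_44_P118625 had 2.04, 2.02 and 2.17 on the controls, 2.28, 1.96 and 2.34 at low, 2.42, 2.33 and 2.15 at middle and 1.95, 1.96 and 2.07 at high. Probe A_44_P621980, printed as 10 spots on each array, had 1.61, 1.59 and 1.73 on the controls, 1.80, 1.60 and 1.89 at low, 1.97, 1.83 and 1.85 at middle and 1.60, 1.59 and 1.75 at high. High overlapped control on both. All high arrays lay below all middle arrays on both, as in 20.4% of probes tested. The differences at high were -0.08 ± 0.10 (95% interval -0.31 to 0.15, adjusted p = 0.576) and 0.01 ± 0.08 (-0.17 to 0.19, 0.959). At middle they were 0.23 (adjusted p = 0.165) and 0.24 (0.0755), the second with all middle arrays above all controls, as in 19.2% of probes tested. High minus middle was -0.31 (adjusted p = 0.0557) and -0.24 (0.0635), neither called. The first passed with normexp (0.0338), with a filter that asks for signal above background on every array (0.0494) and without middle 3 (-0.38, 0.0331), the second with the replicate number as a block (0.0387). With slide as a block the first probe's high difference turned to 0.27 (adjusted p = 0.512). The SD between the 10 spots of A_44_P621980 was 0.04 to 0.06 in log2 on each array.

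**Figure D3:**
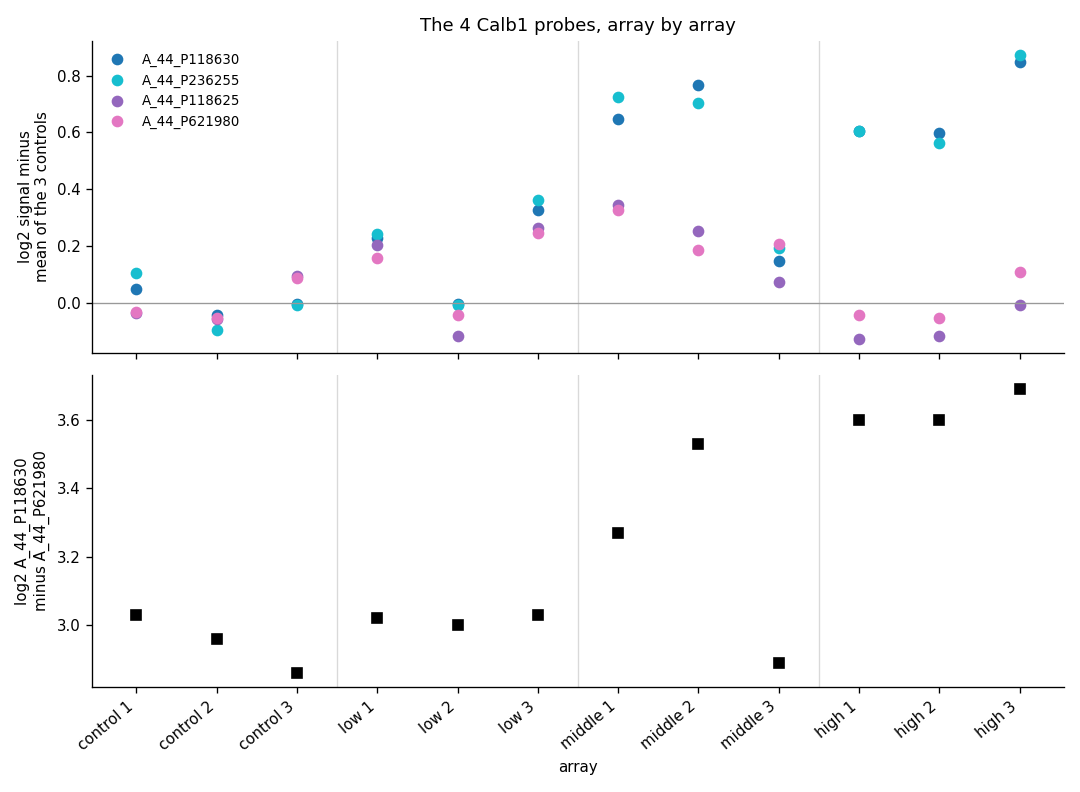
Upper panel: log2 signal of each of the 4 Calb1 probes minus its mean over the 3 controls (vertical axis), for each array (horizontal axis). Lower panel: log2 signal of A_44_P118630 minus that of A_44_P621980 on the same array, 2.86 to 3.03 on controls and 3.60 to 3.69 on high arrays, with middle 3 at 2.89.

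The difference between A_44_P118630 and A_44_P621980 on an array, of which only the change between groups can be read, was 2.95 ± 0.08 (SD, n = 3) on controls, 3.02 ± 0.02 at low, 3.23 ± 0.32 at middle and 3.63 ± 0.05 at high in log2. The 3 high values, 3.60 to 3.69, lay above the 3 controls, 2.86 to 3.03. The middle values were 3.27 and 3.53 on middle 1 and 2, but 2.89 on middle 3, which shares slide 4 with the high arrays. This difference is a description, with no test, because these probes were paired after their values were seen. The same difference between A_44_P118630 and A_44_P236255 ran from 0.94 to 1.09 over the 12 arrays, with a group mean of 1.02 on controls and 1.03 at high. Across the 12 arrays r was 0.99 between A_44_P118630 and A_44_P236255 and 0.93 between A_44_P118625 and A_44_P621980, and 0.24 to 0.39 between the pairs. With group means taken off, the values between the pairs were 0.53 to 0.82. RefSeq lists 2 Calb1 transcripts; where each probe lies on them was not analysed here. On slide 4 the high mean differed from middle 3 by 0.54 and 0.48 on the first pair and by -0.16 and -0.21 on the second.

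Trpv5, the calcium entry channel, was well above background on 1 of 12 arrays, high 1. Its signals were -5.52, -5.73 and -5.51 on the controls, -6.14, -5.42 and -5.18 at low, -4.83, -6.91 and -6.09 at middle and -5.05, -5.52 and -4.97 at high. The middle arrays alone spanned more than the other groups together, and the probe was not tested.

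Between neighbouring doses, 0 of 7 member probes were called at middle minus low (3 at an unadjusted p under 0.05, limma) and 0 at high minus middle (2 at an unadjusted p under 0.05). Over all probes 0.133% and 21.7% were called. Slc12a3 differed by 0.26 between middle and low (adjusted p = 0.218), with all middle arrays above all low arrays, as in 11.5% of probes tested. The Calb1 probe A_44_P118630 differed by 0.17 between high and middle (adjusted p = 0.467). With slide as a block that was 0.54 (adjusted p = 0.0322), and 9.03% of all probes were called. In that fit only middle 3 shares a slide with the high arrays. Without middle 3 and with no block the difference was -0.02.

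Of 15 other thick ascending limb genes tested, 7 rose and 0 fell at high (median 0.264), against 17.8% higher and 16.6% lower and a median of -0.002 over all genes tested, each read by its brightest probe. Cldn14, a claudin that limits calcium passage between the cells, rose 2.16-fold (log2 1.11 ± 0.10, adjusted p = 4.6e-05). Bsnd, the barttin gene, rose 1.57-fold (0.65, adjusted p = 0.00121). All 7 lost their calls with slide as a block, and Cldn14, with the lowest adjusted p among them, was 1.24 (0.0539). At middle 5 rose and 0 fell (median 0.134), against 8.10% higher and 4.74% lower over all genes, calls that were all lost without control 1 or without control 2. The summed linear signal of the 15 genes was 589 to 646 on controls, 631 to 668 at low, 670 to 709 at middle and 672 to 700 at high.

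Of 14 genes of distal convoluted tubule salt and magnesium transport tested, 2 rose and 1 fell at high (median 0.084), where 17.8% of all genes were higher and 16.6% lower. Stk39, the kinase SPAK that phosphorylates NCC, rose by 0.26 (adjusted p = 0.00179), and the magnesium channel gene Trpm6 rose by 0.24 (0.00857). Kcnj16, a potassium channel subunit of the basolateral membrane, fell by 0.29 (adjusted p = 0.00472). Sgk1, a kinase induced by aldosterone and named after its value was seen, differed by -0.54 and was not called (adjusted p = 0.118; -1.21, 0.292 with slide as a block). At middle 1 rose, where 8.10% of all genes were higher: Hsd11b2, the enzyme that inactivates glucocorticoid (0.28, adjusted p = 0.0185), named after its value was seen. That call was lost without control 1 or without control 2. The summed signal of the 14 genes was 230 to 245 on controls and 242 to 253 at low. At high it was 241 to 248, overlapping the controls, and at middle 250 to 258, above them.

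Genes of distal calcium transport moved both ways: 4 of 10 rose and 4 fell at high (median -0.210), against 17.8% and 16.6% of all genes. Cyp24a1, which breaks down vitamin D, rose by 1.87 (adjusted p = 0.0112; with the slide term 3.70, 0.0624), though at middle it was lower by 1.82 than in controls (log2 -1.82, adjusted p = 0.031). The annexin partner S100a10 rose by 0.40 (0.00144). The vitamin D receptor gene Vdr rose by 0.42 (0.0376), a call lost without any 1 of the 6 arrays compared (highest adjusted p 0.114, without control 3). Slc8a1, the sodium-calcium exchanger of the basolateral membrane, fell by 0.83 on its brightest probe (0.000303), and its other probes read -0.17 and -0.23. S100g, the calbindin-D9k gene, fell by 0.58 (0.000812), and Kl, the klotho gene, fell by 0.56 (0.00389). At middle 2 fell (median -0.108; 4.74% of all genes were lower), and both calls were lost without control 1, control 2 or middle 3. Trpv6 was not tested. Summed over the 10 genes, the signal was 67.9 to 69.2 on controls and 66.2 to 69.1 at high, which overlapped. It was 65.7 to 67.4 at low and 64 to 65.9 at middle, both below the controls. Both Cyp24a1 and Vdr are also expressed outside these segments, and Kl and Cyp24a1 also in the proximal tubule.

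**Figure D4:**
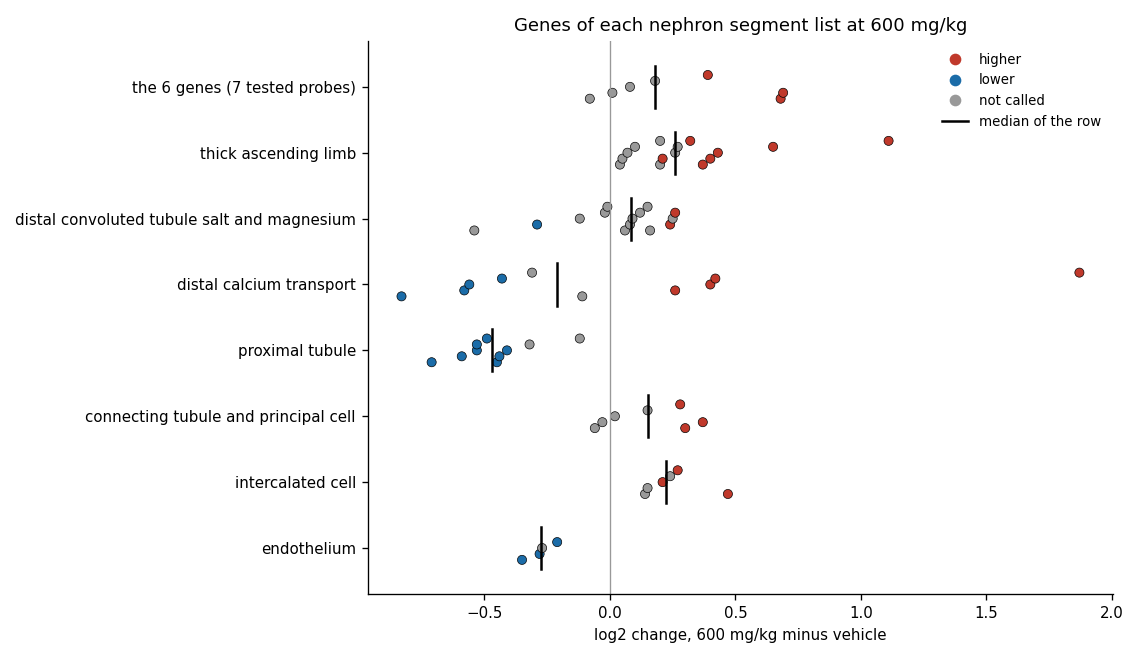
Log2 change at 600 mg/kg against control (horizontal axis) of the 7 member probes and of the genes of 7 lists, 1 row each, each gene read by its brightest probe. Red points were called higher, blue lower and grey not called, and the black line is the row's median, 0.264 for the thick ascending limb and -0.469 for the proximal tubule.

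Markers of other cells in the cortex moved in the same samples. Of 10 proximal tubule genes 8 fell and 0 rose at high (median -0.469), where 16.6% of all genes were lower and 17.8% higher. They included the bicarbonate carrier Slc4a4 (-0.71, adjusted p = 0.00242), the sodium-linked phosphate carrier Slc34a1 (-0.59, 2.89e-05) and the water channel Aqp1 (-0.53, 0.00445). When slide was a block Slc34a1 was -0.58 (0.0482) and Aqp1 -0.95 (0.0385), both still called, while Slc4a4 was -0.09 (0.865). The summed signal of the list was 557 to 585 on controls, 516 to 588 at low, 534 to 535 at middle and 413 to 431 at high, so every middle and high array lay below every control. At middle 0 of the 10 were called (1 at an unadjusted p under 0.05, limma; median -0.063). All array values here are relative to the array's own 75th percentile, so a fall in 1 abundant cell type and a rise in the others cannot be told apart on this scale; their part in the rise of Slc12a3 and Calb1 was not tested.

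In the connecting tubule and principal cell list 3 of 7 rose and 0 fell (median 0.155), and in the intercalated cell list 3 of 6 rose and 0 fell (median 0.225), against 17.8% higher and 16.6% lower over all genes. The first were the sodium channel subunits Scnn1a (0.37, adjusted p = 0.00132), Scnn1b (0.30, 0.00151) and Scnn1g (0.28, 0.0127; lost without high 1, 0.0511). The second were the proton pump subunits Atp6v1b1 (0.47, 0.0064) and Atp6v1g3 (0.27, 0.0113) and the anion exchanger Slc26a4 (0.21, 0.0207). The last lost its call when control 1 or 2, or high 2 or 3, was left out (adjusted p up to 0.0723). Their summed signals at high were 80.5 to 81.1 and 102 to 110, against 76.3 to 78.6 and 84.2 to 95.3 on controls. Ptgs2, a prostaglandin synthase of the macula densa, rose by 0.64 (adjusted p = 0.00141).

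The counts that follow stand against 17.8% of all genes higher and 16.6% lower. Of 4 endothelial genes 3 fell at high (median -0.275): Kdr by 0.35 (adjusted p = 0.000266), Pecam1 by 0.28 (0.0262) and Emcn by 0.21 (0.00516); Pecam1 lost its call when control 1 or 3, or high 1 or 3, was left out (adjusted p up to 0.0941). Of 4 podocyte genes 1 fell, Wt1 by 0.30 (0.0203), lost without control 2 (0.0672) or high 3 (0.0779), a share near that over all genes. Of 4 leukocyte genes 2 rose (median 0.195): Adgre1, a macrophage marker (0.88, 3.9e-05), and Csf1r (0.20, 0.0333), the second not called when control 2 or 3, or high 1 or 2, was left out (adjusted p up to 0.122). Of 6 injury genes 4 rose and 0 fell (median 1.270): Hmox1 (3.51, 2.67e-07), Havcr1 (3.19, 0.00123) and Timp1 (1.27, 9.2e-06) led, and at middle 0 were called (0 at an unadjusted p under 0.05, limma). Of the genes named in these lists, only Slc34a1, Aqp1, Hmox1 and Timp1 kept their calls with slide as a block. Among the others that fit gave smaller changes for Slc8a1 (-0.41), Kcnj16 (-0.18), S100a10 (0.25), Scnn1a (0.17), Pecam1 (-0.15), Emcn (-0.13) and Csf1r (0.08). Changes were also smaller for Havcr1 (2.16 ± 1.05, adjusted p = 0.285), Adgre1 (0.70), S100g (-0.44), Kl (-0.47) and Ptgs2 (0.62). Larger ones included Slc26a4 (0.45) and Wt1 (-0.52). For the genes with values here the adjusted p ran from 0.0626 to 0.816. At low, 0 of the 83 tested genes of the 12 lists were called (8 at an unadjusted p under 0.05, limma).

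The genes whose signals were most like each member's over the 12 arrays were looked for among 10997 other named genes, and are given as a description with no test. For Slc12a1 they were Tjp3 (r = 0.90), Tmem184a (0.87) and Rab17 (0.87); for Umod Mrpl37 (0.93), Cand1 (0.93) and Apba3 (0.91). For Slc12a3 they were Cmahp (0.95), Egf (0.95) and Etfbkmt (0.94); for the brightest Calb1 probe Dap (0.96), Gpr107 (0.95) and Rps19-ps18 (0.95). With group means taken off, the values were 0.76 to 0.93 for Slc12a1, 0.89 to 0.92 for Umod, 0.75 to 0.79 for Slc12a3 and 0.84 to 0.92 for Calb1. Under quantile normalization those of Umod were 0.61, 0.75 and 0.49. Between members, Umod and Slc12a3 had r = 0.85 (0.80 with group means taken off). The 12 arrays share the dose groups and slides.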

How the data were processed

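Kidney cortex RNA of 12 rats was labelled with Cy3 and hybridised to 1-colour Agilent arrays of 45018 spots, per the labels. Per the file headers, the deposited scanner files hold linear intensity values from Agilent Feature Extraction 9.1.3.1, with background already subtracted in the processed signal. The deposited value table is a ratio: the processed signal divided by 1 constant per array. Its 12 columns all belong to samples (0 unused). The alignment of probes to a genome build is not given in the sources used here. Control spots and outlier spots were left out, spots of a probe averaged, the signal put on log2 and the array's 75th percentile subtracted. limma 3.58.1 in R 4.3.3 fitted 1 mean per group, checked on simulated data. Arrays were 3 per group, which limits the precision. Probes were named through RefSeq accessions (10735), current symbols (5571) or older symbols (3729); 20977 were not matched.

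The 6 members, the lists and the tests were chosen with earlier results of these data known. Of each list, the called genes that moved most at high were named, at most 3 in each direction (some are not reported here); per member, the 3 genes with the highest r. Alternatives were quantile, median or normexp (offset 50) values, the deposited table, the filter, 1 probe per gene, only the groups compared, blocks for replicate number, slide and scan day, and each array left out. Those for list genes, list counts and likeness were added after seeing the data.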

Additional observations from a re-analysis of the deposited data

How the results depend on the processing

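Of 1123 alternative fits over the 67 single-probe results, 1012 kept direction and side of the threshold, 91 lost and 6 gained a call, and 14 turned sign. High against control had 577 probes called with slide as a block, middle against control 55, low against control 8, middle against low 78 and high against middle 2232. With no filter on dim probes the counts for middle against control, low against control, middle against low and high against middle were 1151, 13, 14 and 3537, and with only the groups compared 331, 0, 0 and 2829 (limma; 3058 and 2389 probes at an unadjusted p under 0.05 for the 2 counts of 0). Low against control had 47 with normexp and 9 with scan day as a block. Leaving out 1 array gave 6174 to 7168 for high against control, 772 to 3182 for middle against control (772 without control 1, 833 without control 2), 6 to 46 for low against control, 11 to 91 for middle against low and 3541 to 5223 for high against middle (3541 without high 1). For middle against control 59.2% of calls were higher, 70.1% with a median shift and 70.5% with the deposited table.

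The 14 sign turns were all in changes that were not called. For the high difference, A_44_P118625 of Calb1 was 0.27 with slide as a block, and A_44_P621980 was -0.00 with quantile normalization and -0.04 to 0.05 with 1 array left out, below 0 without control 1, control 2 or high 3. For the middle difference Slc12a1 was -0.03 with quantile normalization and -0.02 to 0.11 with 1 array left out (-0.02 without middle 2). For middle minus low with 1 array left out, Slc12a1 was -0.11 to 0.03 (0.03 without middle 1) and A_44_P118625 -0.01 to 0.19 (-0.01 without low 2). For high minus middle, Slc12a3 was 0.02 with normexp and -0.08 to 0.06 with 1 array left out (0.05 without middle 2, 0.06 without high 1). A_44_P118630 was -0.02 to 0.29 and A_44_P236255 -0.03 to 0.23, both lowest without middle 3. The cause of these turns was not tested. Replicate numbers do not pair the samples: deviations of same-numbered arrays correlated from -0.21 to 0.12. With the replicate block 10 probes were called for low against control and 16 for middle against low, and the middle calls of both rising Calb1 probes were lost. The 3 arrays a group limit the precision, and Pvalb and Trpv5 were limited by signal over background.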
